A study of Mus musculus with 12 samples.

Results

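The macrophage lineage transcription factors examined here were 9 genes, Spi1, Irf8, Runx1, Cebpa, Cebpb, Maf, Mef2a, Mef2c and Mitf, of 21135 genes in an RNA-seq table of mouse microglia. They were chosen by name, and all 9 were in the table and passed the filter on low values. Microglia, the resident macrophages of the brain, were sorted from mouse midbrain by flow. Control mice (WT) had the genotype Ppargc1a FF, and mice with a microglial deficiency of Ppargc1a (KO) were Ppargc1a FF CreER, CreER being a recombinase that tamoxifen activates. The promoter that drives CreER is not given in the sources used here. Mice of each genotype received PBS or MPTP, a toxin that kills dopaminergic neurons, and all samples, controls included, were labelled 6 weeks after tamoxifen. The labels give 4 groups of 3 samples, WT PBS, WT MPTP, KO PBS and KO MPTP, and do not say if these are different animals. The p-values therefore measure only the spread between these profiles, which may be technical.

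These factors set up and hold the macrophage state in layers. PU.1, encoded by Spi1, is the ETS-family pioneer factor that opens macrophage enhancers, and IRF8, RUNX1 and the C/EBP proteins bind beside it. C/EBPα, encoded by Cebpa, drives myeloid commitment, whereas C/EBPβ, encoded by Cebpb, is induced by cytokines and cyclic AMP and acts on inflammatory and alternative activation genes. MAF restrains macrophage self-renewal, MEF2A and MEF2C are MADS-box factors whose motif is common in microglial enhancers, and MITF activates lysosomal and osteoclast genes. PGC-1α, encoded by Ppargc1a, is a coactivator of nuclear receptors and other factors in mitochondrial biogenesis.

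The promoters of Cebpb, Cebpa and Irf8 are shown because Cebpb was the member called in a comparison, while Cebpa, its relative, and Irf8 are members that were not called. Each window runs from 250 bases before to 50 after a RefSeq start on the plus strand of GRCm38.p6, at chr2:167688665-167688964 for Cebpb, chr7:35119043-35119342 for Cebpa and chr8:120736108-120736407 for Irf8. Capitals mark TGACG, the core of the cyclic AMP response element, and TATAAA, the TATA box, on either strand.
Cebpb: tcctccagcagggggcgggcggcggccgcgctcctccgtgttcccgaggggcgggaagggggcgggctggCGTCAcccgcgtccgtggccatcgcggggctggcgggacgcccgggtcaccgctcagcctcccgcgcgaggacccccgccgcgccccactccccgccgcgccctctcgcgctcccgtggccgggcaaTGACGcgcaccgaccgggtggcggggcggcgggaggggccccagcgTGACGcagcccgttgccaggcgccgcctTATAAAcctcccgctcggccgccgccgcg
Cebpa: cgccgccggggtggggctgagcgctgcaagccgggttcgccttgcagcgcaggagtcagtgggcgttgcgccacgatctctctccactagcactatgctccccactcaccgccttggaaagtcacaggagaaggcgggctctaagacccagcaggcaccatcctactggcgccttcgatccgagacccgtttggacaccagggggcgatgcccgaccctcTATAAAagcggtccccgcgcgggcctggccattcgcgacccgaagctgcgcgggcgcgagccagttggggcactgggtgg
Irf8: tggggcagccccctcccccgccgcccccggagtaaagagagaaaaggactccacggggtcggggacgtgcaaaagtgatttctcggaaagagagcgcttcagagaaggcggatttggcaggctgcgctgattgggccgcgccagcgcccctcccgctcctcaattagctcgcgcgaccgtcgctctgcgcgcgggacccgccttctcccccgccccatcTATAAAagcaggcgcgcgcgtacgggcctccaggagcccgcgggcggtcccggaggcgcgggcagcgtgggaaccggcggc
Counting from 1 at the annotated start, with negative positions before it, the Cebpb window held TGACG at -180 to -176 on the opposite strand, at -53 to -49 and at -7 to -3, and TATAAA at 22 to 27. The Cebpa and Irf8 windows held TATAAA at -30 to -25 and -31 to -26, and no TGACG. Of 32851 such windows in the RefSeq table, 20.8% held TGACG and 13.6% held TATAAA. Cebpb also held 5 matches to GGGCGG, the GC box, which 35.7% of all windows held. Its window was 80.7% G and C with 50 CpG dinucleotides, the highest of the 13 windows that 7 members had in the table, against medians of 52.7% and 7 over all windows. Spi1 and Maf were not matched.

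Across the 13 windows of members, other motifs were searched on both strands. TTGCNNAA, the full C/EBP site, was found in 2 windows, both of Mitf (10.8% of all windows), and in none of Cebpb. GAGGAA, a PU.1 core, was found in 4 windows, of Runx1, Mef2a and Mef2c (28.3% of all). TGTGGT, the RUNX core, was found in 2 windows, 1 of them of Runx1 itself (16.8% of all), and CACGTG, an E-box of the kind MITF binds, in 1 window of Runx1 (7.15% of all). AAGGTCA, an element of the ERR receptors that PGC-1α coactivates, was found in 1 window of Mitf and 1 of Mef2c (4.72% of all), and the NRF1 site in 0 of 13 (0.971% of all). TGACGTCA, the full cyclic AMP response element, which contains the TGACG core, was found in 1 window of Mitf (1.79% of all). These matches describe letters in a window and were not tied to any value.

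The table held 12 columns of values taken as FPKM, a read measure scaled to transcript length and library size, which summed to between 388861 and 434022 per column. Read depth is unknown. In 6 columns the values were separate profiles: the first and second of WT PBS, the first of WT MPTP, the first and second of KO PBS, and the second of KO MPTP. The other 6 could be computed from these to rounding in nearly all rows. KO MPTP 1 was a fixed multiple of KO PBS 2 (for Spi1, 71.01 and 69.62 FPKM), so that 1 profile stood under both treatments of the KO. Departures from these relations occurred in 49 rows of 42 genes, among them Cebpb and Ppargc1a, whose deposited values therefore do not all follow the rest of their columns. Ppargc1a was 5.70, 6.21 and 2.72 FPKM in the WT profiles and 0.33, 0.12 and 0.42 FPKM in the KO profiles, so the genotypes did not overlap and followed their labels.

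The label of microglia was read against defining markers. Of 14 microglia and macrophage markers found, 10 were at 1 FPKM or more, led by Lyz2 at 1095 ± 64.7, Cd68 at 479 ± 19.7 and Tyrobp at 433 ± 18.9 FPKM (SD, n = 6 profiles). The microglia-defining genes Cx3cr1, P2ry12, Siglech and Fcrls averaged 0.052, 0.19, 0.025 and 0.0083 FPKM, and Sall1, the transcription factor that defines microglia among macrophages, was listed at 0 in all 6 profiles. The profiles carried macrophage genes, and these microglia-defining markers were at or near 0. The macrophage list summed to 2475 to 2543 FPKM in the WT profiles and 2226 to 2430 FPKM in the KO profiles, without overlap. These sums were not rescaled between profiles. Of 6 listed markers each, 2 of neurons, 5 of lymphocytes and 3 of erythroid cells were found in the table. These summed to at most 0.03, 0.09 and 0.23 FPKM, so the neuron and erythroid sums rest on few genes. The oligodendrocyte list summed to 1.39 to 1.73 FPKM in WT and 1.43 to 1.91 in KO, and the astrocyte list to 2.88 to 3.29 and 2.93 to 3.33. The vessel list, at 86.2 to 90.3 FPKM in WT and 82.2 to 90.5 in KO, was almost all Flt1, with Cdh5 at 0. The monocyte list, at 319 to 377 and 344 to 427 FPKM, was almost all Chil3, with Ccr2 and Ly6c2 near 0. The granulocyte list summed to 4.16 to 6.28 and 4.28 to 6.47 FPKM, most of it S100a8. In bulk samples, fewer cells of a type and less RNA per cell cannot be told apart.

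FPKM is scaled by length, so levels can be ordered between genes. Cebpb had the highest mean level at 94.9 ± 52.2 FPKM (SD, n = 6 profiles), followed by Spi1 at 69.3 ± 3.78, Irf8 at 36.0 ± 1.73 and Mef2c at 19.1 ± 1.79 FPKM. Maf, Mef2a, Mitf, Cebpa and Runx1 followed at 12.5 ± 1.01, 11.3 ± 0.80, 8.81 ± 0.36, 7.99 ± 0.41 and 7.36 ± 0.56 FPKM. Cebpb was above Spi1 in 3 of the 6 profiles, the WT ones, and below it in the 3 KO profiles, so these neighbours were not ordered beyond their spread. Spi1, Irf8, Mef2c and Mef2a each lay above the next gene in all 6 profiles with no overlap of ranges. These levels are sums over all rows of a gene, and the places of Mef2c and Mef2a depend on that summing. Maf and Mef2a, Mitf and Cebpa, and Cebpa and Runx1 had overlapping ranges. In all tested genes, the mean level of Cebpb lay at percentile 94.6 and that of Spi1 at 92.4, while Runx1 lay at 39.4.

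**Figure D1:**
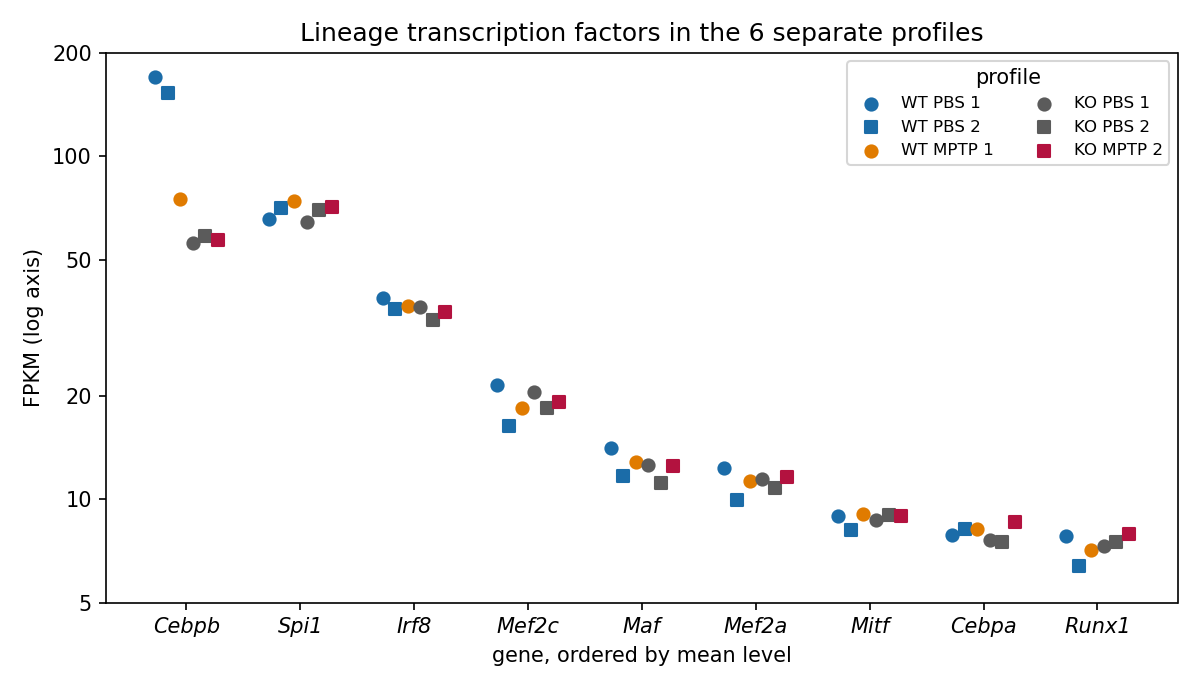
Level of each of the 9 transcription factor genes in FPKM (log axis) in the 6 separate profiles, with genes ordered by mean level. Cebpb runs from 55.9 to 170 FPKM, with both WT PBS profiles on top, while the other genes each lie in a narrow band.

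The sums rest on 56 rows, since the table lists several rows per symbol, and what a row stands for is not given in the sources used here. Cebpb had 1 row. The leading row held 99.7% of the Cebpa sum, 93.7% of Irf8, 79.3% of Spi1, 78.8% of Mitf and 77.9% of Maf. Mef2a, Runx1 and Mef2c were more divided, with leading rows of 63.2%, 48.5% and 46.5%, and Mef2c had 18 rows. By leading row alone the order changed: Maf, at a mean of 9.72 FPKM, stood above Mef2c at 8.87. Cebpa, at 7.96 FPKM, stood above Mef2a at 7.115 and Mitf at 6.94. The leading row of Spi1 kept a share of 77.2% to 81.0% and that of Mef2c 44.8% to 48.3% across the 6 profiles. All rows but that of Cebpb, 55 of 56, followed the column relations.

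Cebpb was 170 and 153 FPKM in WT PBS 1 and 2 and 75.1 FPKM in WT MPTP 1. The KO profiles had 55.9 and 58.6 FPKM under PBS and 57.1 FPKM under MPTP. The WT PBS profiles were high, WT MPTP 1 stood between, and the KO profiles were lowest and close together under either treatment label. The highest profile was 3.04 times the lowest. The SD of its log2 level over the 6 profiles was 0.73, at percentile 99.9 of all tested genes.

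The third column of each group, computed from the others, carried Cebpb at 160 (WT PBS), 78.5 (WT MPTP), 56.7 (KO PBS) and 53.4 FPKM (KO MPTP). WT MPTP 2 held 83.2 FPKM where its relation to WT MPTP 1 gives 76.6, a departure of 6.60 FPKM or 8.61%. KO MPTP 1 held 50.5 FPKM where its relation to KO PBS 2 gives 59.7, a departure of -9.19 FPKM or -15.4%. The first departure lies above the relation and the second below it. They widen the gap between the MPTP columns of the genotypes, and neither column entered the fits on separate profiles. A departure does not show which column of a relation holds the irregular value, and the sources, WT MPTP 1 and KO PBS 2, are separate profiles. WT MPTP 2 and KO MPTP 1 enter the fits on 12 columns, which are named where they are given.

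**Figure D2:**
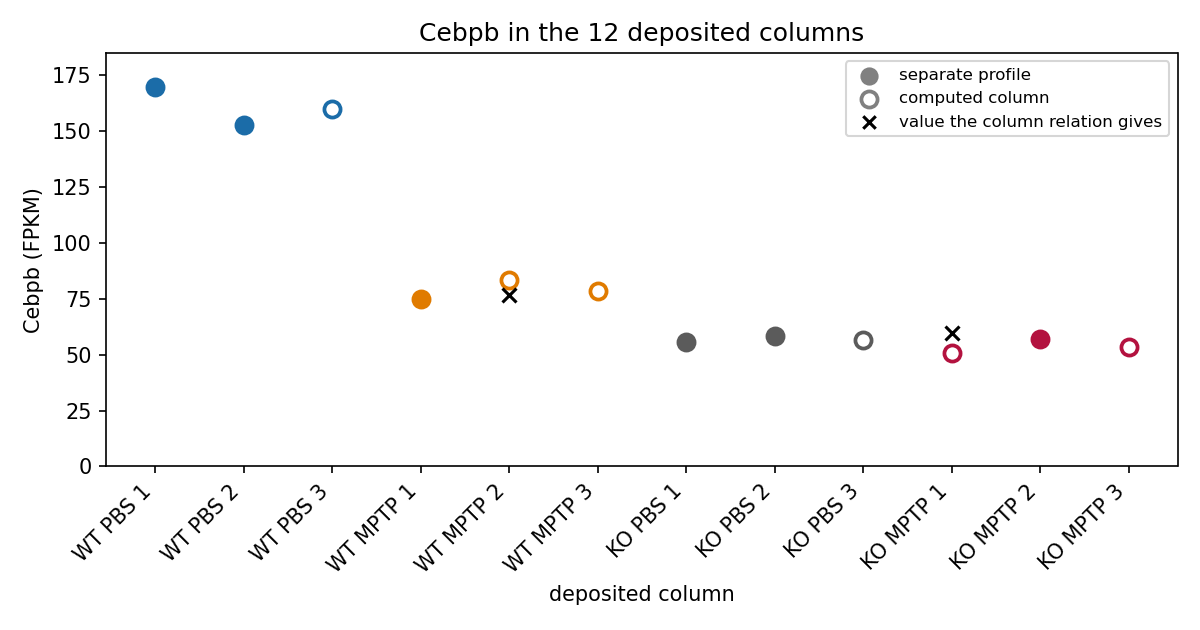
Cebpb in FPKM in each of the 12 deposited columns, with separate profiles filled, computed columns open and crosses at the values that the column relation gives. WT MPTP 2 lies above its cross (83.2 against 76.6 FPKM) and KO MPTP 1 below its cross (50.5 against 59.7 FPKM).

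The other 8 members ranged by 1.11 to 1.31 times from lowest to highest profile. In the WT profiles (WT PBS 1, WT PBS 2, WT MPTP 1, in this order throughout) Spi1 was 65.5, 70.8 and 74.3 FPKM. In the KO profiles (KO PBS 1, then KO PBS 2, then KO MPTP 2) it was 64.2, 69.6 and 71.2 FPKM. Irf8, the interferon regulatory factor that works with PU.1, was 38.7, 35.9 and 36.6 FPKM in the WT profiles and 36.3, 33.4 and 35.3 FPKM in the KO profiles, in the same order. Cebpa was 7.86, 8.17 and 8.22 FPKM in WT and 7.61, 7.49 and 8.56 FPKM in KO. In these 3 genes the ranges of the genotypes overlapped, and no profile stood apart as WT PBS did for Cebpb.

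Mef2c was 21.5, 16.4 and 18.4 FPKM in the WT profiles and 20.6, 18.5 and 19.2 FPKM in the KO profiles. Mef2a was 12.3, 9.95 and 11.3 FPKM in WT and 11.5, 10.8 and 11.6 FPKM in KO. For both MEF2 genes the highest and the lowest value were the WT PBS profiles, so replicates of a single group spanned all others. The ratio of Mef2c to Mef2a stayed between 1.63 and 1.79. Maf was 14.1, 11.7 and 12.9 FPKM in WT and 12.6, 11.1 and 12.5 FPKM in KO. Runx1, the partner of CBFβ in blood cell specification, was 7.81, 6.40 and 7.14 FPKM in WT and 7.33, 7.52 and 7.95 FPKM in KO. Mitf was 8.96, 8.13 and 9.06 FPKM in WT and 8.69, 9.03 and 8.96 FPKM in KO. Mef2c had the widest range of the 8 and Mitf the narrowest, and in none of these 5 genes were the genotypes separate.

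Of 6 ratios between members computed, the 3 with Cebpb varied most. Cebpb to Spi1 was 2.59 and 2.16 under PBS in WT, 1.01 in WT MPTP 1 and between 0.80 and 0.87 in the KO profiles. The ratio of Cebpb to Cebpa was 21.6 and 18.7 in WT PBS, 9.14 in WT MPTP 1 and 6.67 to 7.82 in KO. By comparison, Spi1 to Irf8 ranged from 1.69 to 2.09 and Cebpa to Spi1 from 0.108 to 0.1203 over the 6 profiles.

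The comparison of KO with WT over separate profiles addressed the deficiency whatever the treatment, and it keeps all 6 profiles because the profile under 2 treatment labels is KO under both. The mean Cebpb level of the WT profiles was 133 ± 50.5 FPKM and that of the KO profiles 57.2 ± 1.35 FPKM (SD, n = 3 each). A two-sided exact permutation test gave p = 0.1, the lowest value this design permits. The log2 fold change was -1.12 ± 0.18 (SE, limma, adjusted p = 0.023). The other 8 members did not pass the test: their log2 fold changes ran from -0.09 for Maf to 0.09 for Runx1, and their 95% intervals together spanned -0.23 to 0.23. Their exact permutation p-values ran from 0.2 to 0.9. Thus 1 of 9 members was called, lower in KO, against 0.0752% of the 10636 tested genes called lower and 0% called higher. That share is 8 genes. With the genes off the column relations left out, which removes Cebpb itself, 1 gene was called. Cebpb was also 1 of the genes whose 3 WT profiles all lay above the 3 KO profiles, an arrangement that 7.19% of tested genes had, while 0.818% had all WT profiles below all KO profiles. The summed macrophage markers given above were also lower in KO without overlap, and their part in the Cebpb difference was not tested. The Cebpb call was lost without WT PBS 2 (-0.97, adjusted p = 0.991), without KO MPTP 2 (-1.11, adjusted p = 0.463), when profiles were rescaled to a common median (-1.08, adjusted p = 0.979) or quantile normalized (-1.05), without the filter on low values (adjusted p = 0.939) and with the leading row per symbol (adjusted p = 0.52).

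**Figure D3:**
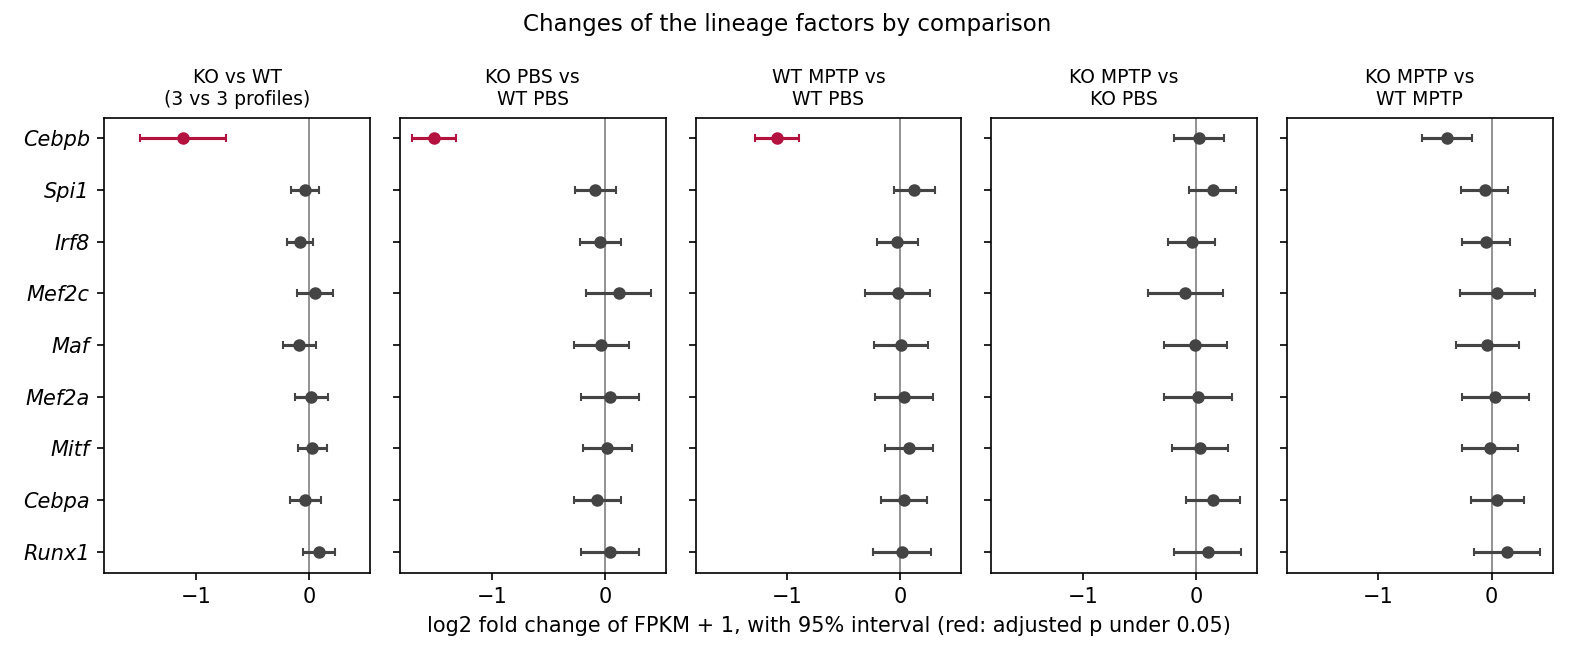
Log2 fold change of FPKM + 1 for the 9 genes in 5 comparisons, with 95% intervals from limma and red points for an adjusted p under 0.05. Cebpb is called in the first 3 panels, and the intervals of the other 8 genes include 0 in each panel.

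The fits by treatment used 5 profiles, without KO PBS 2, leaving 2 WT PBS profiles and 1 in each other group. The single profiles are assumed to vary like the WT PBS pair. Under PBS, Cebpb was lower in KO than in WT by -1.51 ± 0.09 on the log2 scale (SE, limma, adjusted p = 3.76e-05), a fold of 0.351. The other 8 members lay between -0.09 for Spi1 and 0.12 for Mef2c, with 95% intervals within -0.27 to 0.41, and 0 of 8 passed (limma, 0 also at an unadjusted p under 0.05). Of all tested genes, 0.226% were called lower in this comparison. The member median was -0.03, beside -0.06 over all genes. Cebpb was not called without the filter on low values (adjusted p = 0.372). It was called with KO PBS 2 counted as KO PBS, at -1.48, and with either WT PBS profile left out of that fit, at -1.40 and -1.55.

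After MPTP in WT, Cebpb fell by 1.09 ± 0.09 on the log2 scale (SE, limma, adjusted p = 0.000884), from the 2 WT PBS profiles to WT MPTP 1. Spi1 was at 0.12, the highest of the other 8, and Irf8 at -0.03, the lowest, none of them called (limma, 0 without adjustment either), with 95% intervals within -0.31 to 0.30. The share of all tested genes called was 0.254%, with 0.207% lower and 0.047% higher. The member median was 0.01 and that of all genes 0.04. The Cebpb call was lost without the filter on low values (adjusted p = 0.448) and with the leading row per symbol (adjusted p = 0.0596). With the 12 columns taken as libraries Spi1 was called as well, at 0.14 (limma, adjusted p = 0.0101), where 2 of the 3 WT MPTP columns are computed from the first.

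After MPTP in KO, no member was called (limma, 0 of 9 also at an unadjusted p under 0.05, against 0.291% of all genes called, 0.216% higher and 0.0752% lower). From KO PBS 1 at 55.9 to KO MPTP 2 at 57.1 FPKM, Cebpb had a log2 change of 0.03 with a 95% interval of -0.19 to 0.25. The other 8 lay between -0.10 for Mef2c and 0.15 for Cebpa, with 95% intervals within -0.43 to 0.40. Each group had 1 profile here, and changes inside these intervals were not detectable. Against WT under MPTP, Cebpb in KO was at -0.39 (95% interval -0.61 to -0.17, limma) and was not called. The 12 columns as libraries gave -0.55 and a call, but that fit counts computed columns as if they were separate profiles. It also takes in the Cebpb departures of WT MPTP 2 and KO MPTP 1, which widen this gap. On the separate profiles, the other 8 lay between -0.06 for Spi1 and 0.14 for Runx1. In that comparison 0.132% of all genes were called, 0.0658% higher and 0.0658% lower.

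The MPTP change of Cebpb differed between genotypes by 1.12 ± 0.13 on the log2 scale (SE, limma, adjusted p = 0.0184), the change being -1.09 in WT and 0.03 in KO. It was 1 of 9 members called, against 0.0752% of all tested genes. The other 8 members had differences between -0.07 for Mef2c and 0.12 for Cebpa, none called, with 95% intervals within -0.51 to 0.48. The difference was no longer called when KO PBS 2 was counted as KO PBS and WT PBS 1 left out (1.01, adjusted p = 0.0918), without the filter (adjusted p = 0.388), with quantile normalization (1.06) or with the leading row per symbol (adjusted p = 0.326).

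Genes of the pattern nearest to Cebpb were found by the root mean square difference of log2 levels, each centred on its own mean, over the 6 profiles. The nearest 5 of 10635 were Apoc1, an apolipoprotein gene, at 0.22, Aarsd1 at 0.26, Ucp2, a mitochondrial uncoupling protein gene, at 0.26, and the ATP synthase genes Atp5h and Atp5e at 0.34 each, where the median over all genes was 0.67. The nearest of the other 8 members was at 0.63. Apoc1 was 6.34 and 6.88 FPKM in WT PBS, 3.78 in WT MPTP 1 and 2.32 to 2.74 FPKM in KO. Atp5h was 225 and 223 FPKM in WT PBS, 144 in WT MPTP 1 and 129 to 141 FPKM in KO. Apoc1, Aarsd1, Atp5h and Atp5e had no row off the column relations, and Ucp2 had one. All values come from the same 6 profiles as those of Cebpb, and the likeness is a description with no test.

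**Figure D4:**
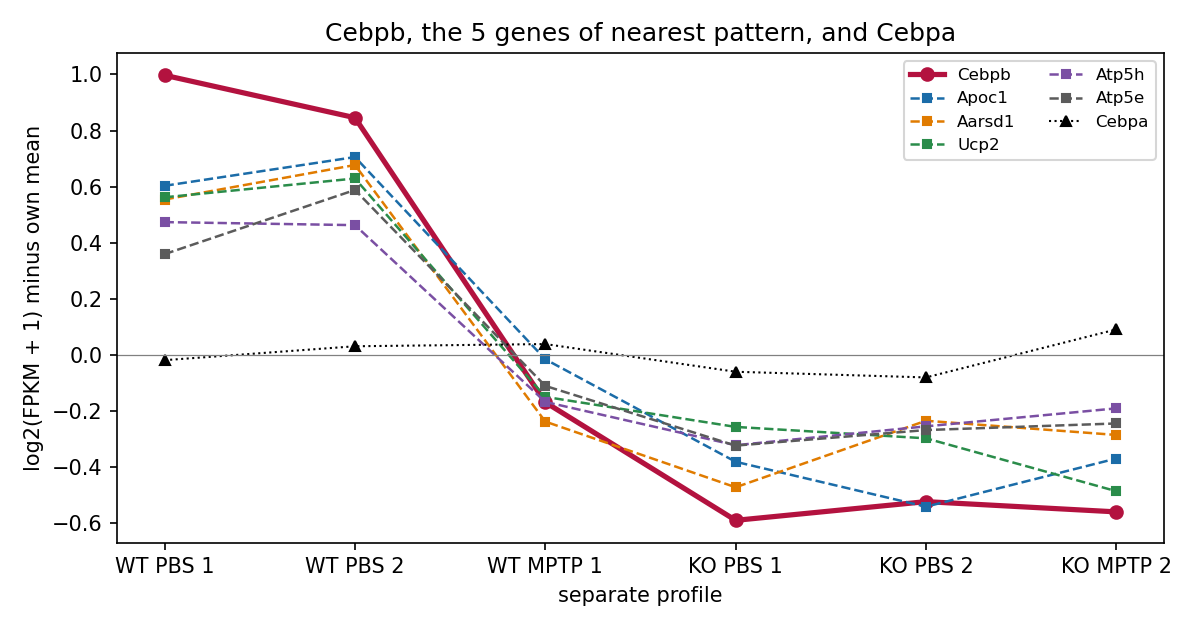
Log2(FPKM + 1) minus each gene's own mean in the 6 separate profiles for Cebpb, the 5 genes of nearest pattern and Cebpa for contrast. Cebpb and its neighbours are high in both WT PBS profiles and lower in the other 4, while Cebpa stays near 0.

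Among relatives of the members, 27 of 32 family genes were tested, and 0 were called in any of the 6 comparisons (limma; 0 to 3 per comparison at an unadjusted p under 0.05). Irf5, an interferon regulatory factor of inflammatory macrophages, stood at 56.0 ± 2.28 FPKM, above Irf8 (SD, n = 6 profiles). Tfe3 and Tfec, relatives of Mitf, stood at 23.4 ± 0.76 and 12.03 ± 0.76 FPKM, and Mef2d at 50.02 ± 1.51 FPKM. In the C/EBP family, Cebpe stood at 21.2 ± 1.51 FPKM and Cebpd between 0.89 and 1.14 FPKM. The ETS genes Spib, Spic and Ets1 averaged 0.033, 0.030 and 0.017 FPKM, so Spi1 stood far above its close relatives Spib and Spic. For KO against WT the family median was -0.04, beside -0.03 over all genes.

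Of 23 other myeloid regulators tested, 1 was called in 1 comparison. Rxra, the retinoid X receptor gene, was 34.4 and 33.2 FPKM in the PBS profiles of WT, against 23.1 FPKM in the MPTP profile, and fell by 0.53 on the log2 scale (limma, adjusted p = 0.0224). It was also a gene off the column relations. Rxra was 31.9, 30.6 and 23.6 FPKM in KO PBS 1, KO PBS 2 and KO MPTP 2, so it stood low in the 2 MPTP profiles and not in KO PBS.

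Few textbook targets of the members were called. Of 27 PU.1 targets 0 were called in any comparison (limma; 1 or 2 per comparison without adjustment), and the highest, Lyz2 and Ctss, stood at 1095 ± 64.7 and 648 ± 33.0 FPKM. Their median for KO against WT was -0.07, with 4 of 27 above 0, where 3241 of all 10636 genes were above 0 and the overall median was -0.03. Of 11 IRF8 targets 0 were called in any comparison (limma; 0 to 2 without adjustment), with a KO against WT median of -0.09 and Cst3 and Cd74 highest at 252 ± 13.1 and 224 ± 15.3 FPKM. Of 21 MITF targets 0 were called in any comparison (limma; 0 or 1 without adjustment). Gpnmb and Ctsk, a lysosomal glycoprotein and the osteoclast protease cathepsin K, led them at 3017 ± 142 and 2627 ± 140 FPKM, and Mitf itself was at 8.81 FPKM. Summed levels did not overlap between genotypes for the PU.1 targets, at 4840 to 4978 FPKM in WT and 4382 to 4776 in KO, nor for the MITF targets, at 8960 to 9205 and 8146 to 8809 FPKM. The same held for the C/EBP targets, at 3117 to 3347 and 2814 to 3049 FPKM, and for the other myeloid regulators, at 463 to 523 and 447 to 461 FPKM. By contrast, the IRF8 targets overlapped, at 667 to 698 FPKM in WT and 613 to 672 in KO. So did the MAF and MEF2 targets, at 412 to 427 and 382 to 417 FPKM. The family relatives overlapped as well, at 498 to 527 and 486 to 524 FPKM. Among single tested genes, 7.19% had all WT profiles above all KO profiles and 0.818% had them below, but these shares are no background for a sum. The sums lean on their highest genes and were not rescaled. Rescaling to a common median raised KO PBS 1 and KO PBS 2 by 0.059 and 0.027 on the log2 scale. It changed KO MPTP 2 by -0.035 and WT MPTP 1 by -0.042. What a general difference in scale adds to these sums was not tested. The macrophage markers did not overlap either, but their highest genes, Lyz2, Cd68 and Tyrobp, are also in the PU.1 list. These sums are therefore not separate observations, and the part of the markers was not tested. Of 13 MAF and MEF2 targets, Nr4a1, an orphan nuclear receptor gene, was called in WT after MPTP, where it fell by 0.73 (limma, adjusted p = 0.0116), from 3.89 and 3.95 to 1.97 FPKM. Nr4a1 was 3.56, 3.13 and 1.97 FPKM in KO PBS 1, KO PBS 2 and KO MPTP 2, so it stood low in the MPTP profiles of both genotypes. It was off the column relations.

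In both comparisons of genotype in which Cebpb was called lower, over all profiles and under PBS, 0 of 14 tested C/EBP targets were called (limma; 1 and 2 without adjustment), although their summed level was lower in every KO profile than in any WT profile. Most of that sum was Arg1, the arginase gene of alternatively activated macrophages, at 2694 ± 173 FPKM over the 6 profiles, and Arg1 was not called. The drop was not shared across the list. Over the separate profiles, 6 of the 14 targets had a log2 fold change above 0 for KO against WT. Their median was -0.03, the same as over all genes. After MPTP in WT, 3 of 14 rose, the inducible nitric oxide synthase gene Nos2 by 1.08, Il1b by 0.81 and Tnf by 0.79 on the log2 scale, while Cebpb was lower. Of all tested genes, 0.047% were called higher there. After MPTP in KO, 4 of 14 rose, while Cebpb was at 0.03: Tnf by 1.46, Ccl2, which encodes a monocyte attractant, by 1.31, Il1b by 0.85 and Nos2 by 0.69. Of all tested genes, 0.216% were called higher in this comparison. These 4 genes, like Cebpb, had values off the column relations, and what those departures contribute was not tested.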

How the data were processed

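RNA-seq of sorted mouse midbrain microglia was deposited as 1 table of 67355 rows and 12 columns. Per the submitters' processing notes the genome build was mm9, and Cufflinks, TopHat, Bowtie 0.12.7 and CASAVA 1.5 were used in roles not stated. The deposited values were taken as FPKM because Cufflinks writes that unit; no header states it, and neither annotation nor filters are stated. Rows were summed per symbol after the trailing number was removed, giving 21135 genes; 1 row with text in a value was left out. A column was called computed where a fixed multiple of another column, or 0.1 plus 0.99 times the mean of columns 1 and 2 of its group, gave it within 0.0101 or 0.00995 FPKM. The 6 separate profiles were used.

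limma 3.58.1 in R 4.3.3 (mean-variance trend, log2(FPKM + 1), Benjamini-Hochberg, threshold 0.05) was fitted to 10636 genes with at least 1 FPKM in at least 3 profiles: all 6 profiles for genotype (4 residual and 13.7 prior degrees of freedom) and 5 for treatment (1 and 9.09). The fold changes understate low genes. The fits were tested on simulated data. Alternatives were pseudocounts, filters, rescaling, the leading row per symbol, the 12 columns as libraries, other labels for KO PBS 2, profiles left out and a replicate block. Named genes were the members, called members of 7 lists (up to 6, otherwise the 2 highest), and the 5 nearest patterns; further members of lists were named for their levels after these were seen. A result on a gene that this rule would name is not reported here. The members and lists were chosen with earlier results of these data known. Promoter sequences are RefSeq's (GRCm38.p6), in which 7 of 9 members matched; the build of the values differs, so no coordinate was joined to a value.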

Additional observations from a re-analysis of the deposited data

Results flagged for a closer look

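The MPTP change of Cebpb differed between genotypes, with a log2 difference of 1.12 between KO and WT by the test of the difference itself (limma, adjusted p = 0.0184). It came from 3 single profiles and the WT PBS pair, in a gene that departs from the column relations in WT MPTP 2 and KO MPTP 1. Neither of those columns entered the fit, but a departure does not show which column of a relation holds the irregular value. WT MPTP 1, the source of WT MPTP 2, did enter it.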

How the results depend on the processing

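The counts of called genes moved more than the size of the Cebpb change. For KO against WT, limma called 8 genes. The count was 0 with no filter, 34 with a filter at 5 FPKM, 0 with median scaling, 0 with quantile normalization, 1023 with the 12 columns as libraries and 1 with genes off the relations left out, which removes Cebpb itself. Cebpb lost the call without the filter (-1.12, adjusted p = 0.939), with median scaling (-1.08), with quantile normalization (-1.05) and with the leading row per symbol (-1.12, adjusted p = 0.52), and leaving out 1 profile at a time gave -1.48 to -0.90 for Cebpb and 1 to 50 genes (1 without WT PBS 2 and without KO MPTP 2, 50 without WT MPTP 1). In the fits of any comparison that called 0 genes, 337 to 2896 genes had an unadjusted p under 0.05.

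In the comparisons by treatment, a profile was left out only with KO PBS 2 counted as KO PBS, which changes 2 choices at once, so the count with that label alone is given beside each such range. For KO PBS against WT PBS, 24 genes became 0 without the filter (Cebpb -1.51, no longer called), 9 with quantile normalization, 8 with the leading row, 1321 with 12 columns, 14 without genes off the relations and 40 with KO PBS 2 counted as KO PBS. For MPTP in WT, 27 genes became 0 without the filter (Cebpb -1.09, not called), 16 with quantile normalization, 0 with the leading row (Cebpb -1.09, adjusted p = 0.0596), 2150 with 12 columns, 4 without genes off the relations, 16 with KO PBS 2 counted as KO MPTP and 29 with it counted as KO PBS, then 10 to 27 with 1 profile left out. For MPTP in KO, 31 genes (23 higher, 8 lower) became 0 without the filter, 52 with a filter at 5 FPKM, 8 with quantile normalization (3 higher, 5 lower), 1 with the leading row, 12 without genes off the relations, 2 when KO PBS 2 was moved to KO MPTP, 17 when it was moved with its deposited KO MPTP 1 values, and 37 when it was counted as KO PBS, then 11 to 13 with 1 profile left out. Median scaling gave 20 higher and 15 lower. The small Cebpb value changed sign with median scaling (-0.0652), quantile normalization (-0.0616), 12 columns (-0.0886), the deposited KO MPTP 1 (-0.0559) and KO PBS 2 as KO PBS (-0.0032), a value that stayed at -0.0032 without either WT PBS profile and was -0.0366 without KO PBS 1. For KO MPTP against WT MPTP, 14 genes (7 higher, 7 lower) became 0 without the filter (limma), 7 with quantile normalization (2 higher, 5 lower), 0 with the leading row, 1539 with 12 columns (Cebpb -0.55, then called), 0 without genes off the relations, 2 or 5 with KO PBS 2 as KO MPTP and 13 with it as KO PBS, then 8 to 14 with 1 profile left out. Median scaling gave 11 higher and 7 lower. For the interaction, 8 genes became 0 without the filter (Cebpb 1.12, not called), 18 with a filter at 5 FPKM, 1 with quantile normalization (Cebpb 1.06, not called), 0 with the leading row (Cebpb 1.12, not called), 127 with 12 columns, 5 with the values of KO MPTP 1, and 4 with KO PBS 2 as KO PBS (Cebpb 1.09), then 1 to 4 with 1 profile left out (Cebpb 1.01 to 1.16).

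The labels number the samples alike in each group, without saying that a number marks a shared animal or day, and only WT PBS and KO PBS hold separate profiles of both numbers 1 and 2. Their deviations had a correlation of 0.23 across genes. With the replicate block, 71 genes were called for KO against WT in 6 profiles, with Cebpb at -1.20. With KO PBS 2 as KO PBS and the block, the counts were 39 for KO PBS against WT PBS, 7 for KO MPTP against WT MPTP and 0 for the interaction (Cebpb 1.13, adjusted p = 0.0668). With the block in 12 columns they were 1203, 3022, 3843, 3304, 3136 and 1044, in the order of the comparisons above, with Cebpb at -0.0886 for MPTP in KO and called at -0.55 for KO MPTP against WT MPTP. Unknown depth limits the low rows. The other 8 members were called only in fits with 12 columns: Irf8 for KO against WT (-0.09), Spi1 for MPTP in WT (0.14) and, with the block, Spi1 and Cebpa for MPTP in KO (0.09 each) and Spi1 for KO MPTP against WT MPTP (-0.08).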

Other observations

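Of the other myeloid regulators, 5 of 23 had an unadjusted p under 0.05 for KO against WT over the 6 separate profiles, and 0 passed the adjusted threshold (limma). Of all 10636 tested genes, 372 had an unadjusted p under 0.05. Klf4, a zinc finger factor of monocytes and macrophages, was 11.9, 10.6 and 11.1 FPKM in the WT profiles. In the KO profiles it was 10, 10.03 and 9.22 FPKM, with no overlap (limma, adjusted p = 0.954). This arrangement, all WT profiles above all KO profiles, held for 7.19% of tested genes. Klf4 was also a gene off the column relations. Bhlhe40 was 83.8, 65.6 and 64.0 FPKM in WT and 63.7, 60.5 and 64.3 FPKM in KO, so that WT PBS 1 alone stood high. Bhlhe41 was 39.3, 31.7 and 32.1 FPKM in WT and 31.5, 29.3 and 31.3 FPKM in KO. Junb was 39.8, 33.7 and 34.1 FPKM in WT and 31.9, 31.4 and 33.4 FPKM in KO. WT PBS 1 was again highest for Bhlhe41 and Junb. As for Klf4, their WT profiles all lay above their KO profiles, though the nearest values were 31.7 and 31.5 FPKM for Bhlhe41 and 33.7 and 33.4 for Junb. Id3 ran the other way, at 3.83, 4.46 and 5.18 FPKM in WT and 4.76, 5.17 and 5.57 FPKM in KO, with overlapping ranges. These 5 were picked by their p-values after these were seen.

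A minor row of Mef2c varied more than its sum. The row numbered 26 was 0.36, 0.81 and 1.03 FPKM in the WT profiles, MPTP last, and 0.43, 0.01 and 0.05 FPKM in the KO profiles. This low row was chosen after their values were seen and was not tested.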
